A study of Mus musculus with 31 samples.

Results

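The 10 genes described here prepare and present peptides to T cells, and were read in liver and epididymal adipose tissue of mice exposed to intermittent hypoxia (IH) or to normoxic air (NO). They were taken from the array annotation by their symbols, and 15 of 25697 probes, for 10 of 16593 annotated genes, carried one of them. H2-Ab1 had 4 probes, Cd74 and H2-K1 had 2 each, and each of the others had 1. The mice were 16-week-old C57BL/6JRj males, and the sources name no engineered allele and no drug for any group. Under IH the inspired air alternated between 30 s at 5% oxygen and 30 s at 21% oxygen, in cycles of 60 s, for 8 h per day over 14 days, and the NO mice breathed air, before both were killed on day 15. Bead arrays were read for 8 NO and 7 IH livers and for 8 NO and 8 IH adipose samples, 31 arrays in all.

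Major histocompatibility complex (MHC) class II molecules are pairs of an alpha and a beta chain that show peptides from engulfed material on dendritic cells, macrophages and B cells, and the invariant chain Cd74 holds their groove until a peptide is loaded. Class I molecules sit on nearly all nucleated cells and show peptides cut in the cytosol by the proteasome, whose interferon-inducible subunits include Psmb8 and Psmb9, and moved into the endoplasmic reticulum by the Tap1 and Tap2 transporter. In liver the resident macrophages (Kupffer cells) and in adipose tissue the tissue macrophages are known carriers of class II, and most of these genes lie together in the H2 complex, as the mouse MHC is called.

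RefSeq promoter windows (build GRCm38.p6, 250 bases before to 50 bases after the annotated start) matched 7 of the 10 genes, all on chromosome 17. Those of H2-Aa (chr17:34287774-34288073, minus strand), H2-Eb1 (chr17:34305617-34305916, plus strand), H2-K1 (chr17:34000298-34000597, minus strand), H2-D1 (chr17:35262844-35263143, plus strand) and Psmb9 (chr17:34187281-34187580, minus strand) are shown because H2-Aa, H2-K1, H2-D1 and Psmb9 were lower in IH adipose tissue, while H2-Eb1, a class II neighbour, was not called. Capitals mark any match, on either strand, to 3 motifs: the CCAAT-type Y box CTGATTGG, a kappa B site and an interferon response element of class I genes. The letters searched for the last pair are those in capitals, in that order, ahead of the Y box letters in H2-K1 and H2-D1. Y box letters here means only the letters searched. Whether they are that element outside the class II genes was not tested.
H2-Aa: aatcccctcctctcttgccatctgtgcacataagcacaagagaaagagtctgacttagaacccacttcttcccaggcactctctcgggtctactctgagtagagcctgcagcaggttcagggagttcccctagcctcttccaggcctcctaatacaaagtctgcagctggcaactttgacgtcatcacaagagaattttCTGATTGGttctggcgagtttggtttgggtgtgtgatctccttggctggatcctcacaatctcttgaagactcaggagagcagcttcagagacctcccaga
H2-Eb1: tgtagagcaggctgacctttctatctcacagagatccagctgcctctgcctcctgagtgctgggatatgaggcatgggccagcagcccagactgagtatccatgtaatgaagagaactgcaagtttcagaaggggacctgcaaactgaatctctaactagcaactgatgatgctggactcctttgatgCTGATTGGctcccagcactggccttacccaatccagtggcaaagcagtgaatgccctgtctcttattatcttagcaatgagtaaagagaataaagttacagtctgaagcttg
H2-K1: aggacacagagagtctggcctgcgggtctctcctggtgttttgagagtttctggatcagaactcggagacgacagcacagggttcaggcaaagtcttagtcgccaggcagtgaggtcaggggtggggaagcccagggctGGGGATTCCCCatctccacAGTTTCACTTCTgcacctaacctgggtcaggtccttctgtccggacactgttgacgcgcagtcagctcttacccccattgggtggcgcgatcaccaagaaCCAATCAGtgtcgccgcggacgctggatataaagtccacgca
H2-D1: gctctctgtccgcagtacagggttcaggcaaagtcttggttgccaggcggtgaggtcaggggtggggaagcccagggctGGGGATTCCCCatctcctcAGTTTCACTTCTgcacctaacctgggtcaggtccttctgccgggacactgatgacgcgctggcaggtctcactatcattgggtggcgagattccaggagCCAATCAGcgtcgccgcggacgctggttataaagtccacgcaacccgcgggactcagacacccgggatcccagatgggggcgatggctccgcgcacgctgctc
Psmb9: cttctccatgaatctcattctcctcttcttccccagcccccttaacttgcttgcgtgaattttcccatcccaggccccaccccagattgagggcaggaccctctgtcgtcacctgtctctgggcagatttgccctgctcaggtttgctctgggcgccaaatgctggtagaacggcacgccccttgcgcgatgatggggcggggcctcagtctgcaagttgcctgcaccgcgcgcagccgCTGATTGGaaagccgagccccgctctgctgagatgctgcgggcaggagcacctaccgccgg
The Y box letters were found in all 5 windows and in 4.1% of 32851 mouse promoter windows of the same length. They began 51 bases before the start of H2-Aa, 62 before that of H2-Eb1, 53 before that of H2-D1 and 11 before that of Psmb9, and 9 bases after that of H2-K1, with the reverse strand letters in H2-D1 and H2-K1. The kappa B letters and the interferon element letters were found in H2-K1 (111 and 92 bases before the start) and in H2-D1 (171 and 152 bases before it), and in 0.0304% and 0.0335% of all windows. Psmb9 and Tap1 start back to back, so the window of Tap1 holds the same Y box letters as that of Psmb9. The window of Psmb8 held none of the 3 motifs. The motifs overlapped nowhere in these windows, and a match is a description of the letters, not a measured site.

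Values are log2 intensities with an offset of 16, so that differences of dim probes are understated, and an array had a probe "detected" when its detection p-value was under 0.01. Between 8359 and 9293 probes were detected on the liver arrays and between 10261 and 12340 on the adipose arrays. No chip held both exposures of 1 tissue, so chip and exposure cannot be told apart within a tissue. No chip held NO arrays of both tissues either. All 6 hepatocyte markers were detected in both liver groups, 1 of them not on every IH array, and the 5 adipocyte markers with a probe were detected on every adipose array. Adipose IH replicate 19 stood apart, with a summed linear signal of the endothelial markers of 641 (the next lowest IH array had 2710) and of the adipocyte markers of 16600 (next lowest 31200). The labels number the samples but do not tie the number of a liver array to the same mouse as that of an adipose array, and p-values measure the spread between these arrays.

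Several arrays stood apart at H2 genes in the same way in both tissues. For H2-Aa, the alpha chain of the class II molecule I-A, NO replicate 2 had 4.74 in liver and 5.85 in adipose tissue, and IH replicate 20 had 4.91 and 4.98. No other array was under 6.19 in liver or under 6.85 in adipose tissue. For H2-Eb1, the beta chain of the class II molecule I-E, the same 2 replicate numbers had 4.75 and 4.74 (number 2) and 4.65 and 6.05 (number 20). Cd74 did not follow this split: number 2 had 9.38 in liver, among the higher NO values, but 10.52 in adipose tissue, the lowest, and number 20 had 7.95 in liver, the lowest, but 12.49 in adipose tissue.

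Other class I and class II genes split the arrays by number as well, and H2-Ea and H2-T10 were picked out after their values were seen. One of 2 probes of H2-T23, which encodes the nonclassical class I molecule Qa-1, was detected on all arrays but those numbered 2, 4 and 20, and all 15 numbers that the tissues share had the same detection in both. H2-Ea encodes the alpha chain of I-E, which C57BL/6 mice are known not to transcribe. In liver it was detected in replicates 1 (6.86), 21 (6.53) and 22 (6.82) only. In adipose tissue it had 9.39, 8.41, 7.47, 8.78 and 9.53 in replicates 1, 4, 15, 21 and 22, and at most 5.77 in all others. H2-T10, a further nonclassical class I gene, was not detected in replicates 1 and 21 of either tissue, in replicate 7 of liver and in replicate 15 of adipose tissue. The H2 genotype of the mice was not measured here, and results are therefore given with all arrays, without numbers 2 and 20, and without numbers 1, 2, 4, 15, 20, 21 and 22. In adipose tissue the last setting leaves out all IH arrays of 1 chip, and the IH arrays that remain lie on 1 other chip. Chip and choice of arrays cannot be told apart there.

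**Figure D1:**
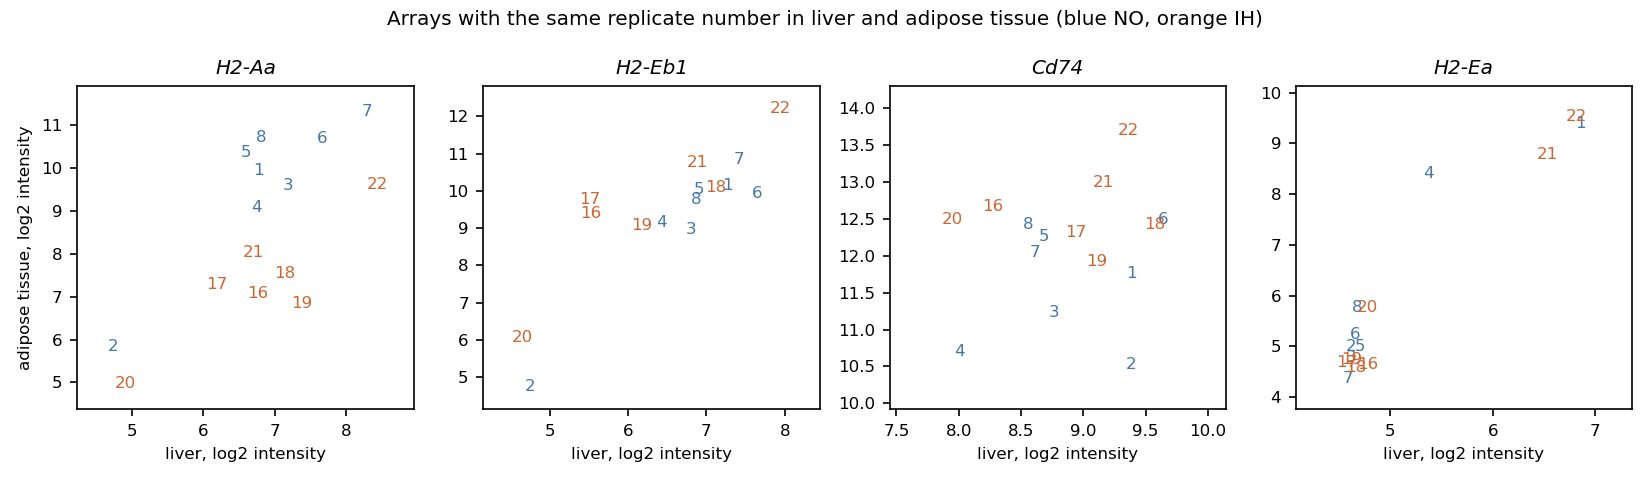
Log2 intensity in liver (x axis) and adipose tissue (y axis) for arrays that share a replicate number, printed as that number (blue NO, orange IH, 15 numbers). Numbers 2 and 20 are low in both tissues for H2-Aa and H2-Eb1, and numbers 1, 21 and 22 are high in both for H2-Ea.

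The first comparison asks how much of the pathway each tissue carries without hypoxia. The class II genes stood out: H2-Aa, H2-Ab1 (the beta chain of I-A), H2-Eb1 and Cd74 were all higher in NO adipose tissue than in NO liver, by 5.39-fold to 7.00-fold. In a limma fit of all 31 arrays, normalized together, 7 of 10 genes were higher in adipose tissue and 0 lower at an adjusted p under 0.05. Over all 8654 genes the share called was 73.9%, with 44% higher and 29.9% lower in adipose tissue. The NO arrays of the tissues shared no chip, so chip and tissue cannot be told apart in this comparison.

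Cd74 had 8.89 ± 0.54 (SD, n = 8) in NO liver and 11.68 ± 0.77 (SD, n = 8) in NO adipose tissue, where the lowest array, at 10.52, lay above the highest liver, at 9.65. The difference was 2.79 (standard error 0.30, interval 2.18 to 3.41). For H2-Ab1 it was 2.80 (standard error 0.28), again with no overlap between the tissues. H2-Aa and H2-Eb1 differed by 2.81 and 2.43 (standard errors 0.63 and 0.71), and here the tissues overlapped, because adipose replicate 2 was at 5.79 for H2-Aa and at 4.80 for H2-Eb1 on this scale.

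The class I genes were nearer to each other in the tissues. H2-D1, a classical class I heavy chain, was higher in adipose tissue by 0.79 (standard error 0.26), the transporter subunit Tap2 by 0.58 (0.21) and the proteasome subunit Psmb8 by 0.65 (0.23). Psmb8 was detected on 1 of 8 NO livers, so that its difference was taken against a group mostly at background. H2-K1, the other classical heavy chain, differed by -0.02 (interval -0.38 to 0.34), Tap1 by -0.12 (interval -0.50 to 0.25) and Psmb9 by 0.22 (interval -0.18 to 0.63), and these 3 were not called. Tap1 was detected on 2 of 8 NO livers, so its small difference does not show like levels. Without numbers 1, 2, 4, 15, 20, 21 and 22 the call of Tap2 was lost (0.51, adjusted p = 0.121 from limma) and the other 6 remained.

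Among partner genes of the class II pathway 5 of 7 tested were higher in adipose tissue and 1 lower, where 44% and 29.9% of all genes were. Of 10 class I partners tested, 3 were higher and 5 lower, of 8 proteasome partners 1 and 2, and of 13 regulators 10 and 1. All 8 macrophage markers tested were higher in adipose tissue and all 4 Kupffer cell markers were lower. Fewer cells of a type and less RNA per cell cannot be told apart in such whole tissue, and the part of these cells in the class II difference was not tested.

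**Figure D2:**
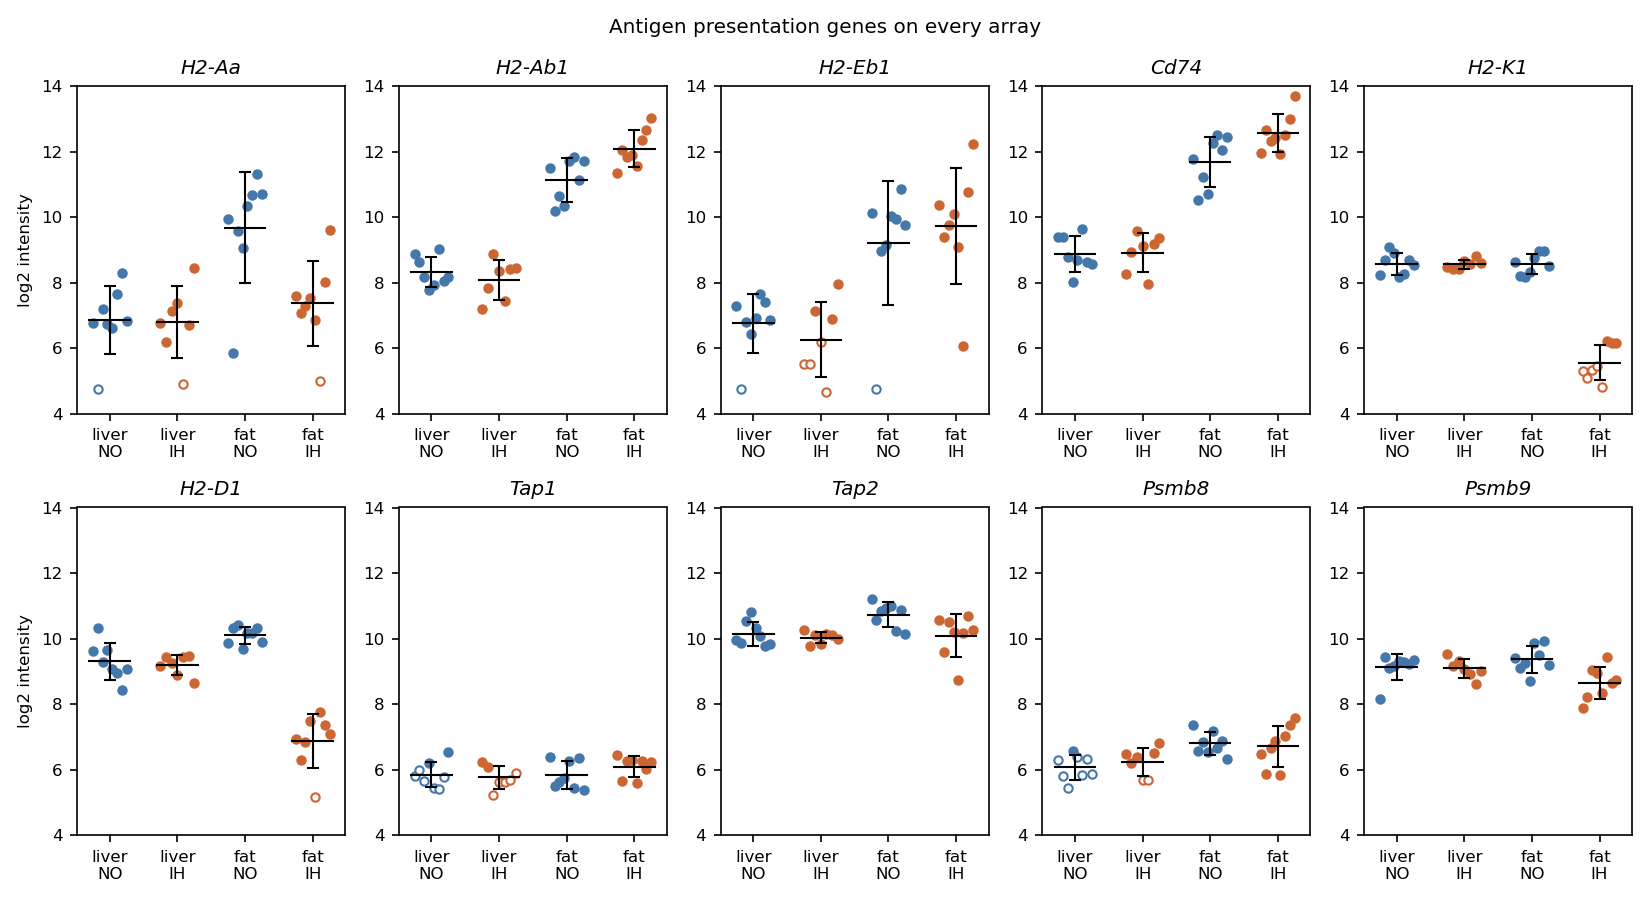
Log2 intensity of the 10 genes on every array, by tissue and exposure (blue NO, orange IH, "fat" is epididymal adipose tissue). Filled points were detected at a p under 0.01 and open points were not, and lines show the mean and SD. Each tissue was normalized alone. By mean the 4 class II genes sit higher in NO adipose tissue than in NO liver. H2-K1, read by probe a, and H2-D1 fall below all NO adipose arrays under IH.

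In the liver, IH was compared with NO for 8 of the 10 genes. Tap1 was detected on 2 of 8 NO and 2 of 7 IH livers and Psmb8 on 1 of 8 and 5 of 7, so that neither was kept for the test. None of the 8 genes was called by limma at an adjusted p under 0.05 and 0 had an unadjusted p under 0.05, where 0.931% and 16.9% of 6443 genes did. The SAM statistic called 0 of the 8 as well.

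H2-Ab1 ranged from 7.77 to 9.01 (median 8.16) in NO and from 7.19 to 8.87 (median 8.35) in IH livers. The difference was -0.24 (interval -0.78 to 0.30), and the groups overlapped. Of its 4 probes, probe d had the widest difference, -0.87, with an exact permutation p of 0.005 (two-sided) but no call in the fit of all probes (adjusted p = 0.110), and it was not above background on 2 IH arrays. H2-Eb1 ranged from 4.75 to 7.65 (median 6.88) in NO and from 4.65 to 7.95 (median 6.17) in IH, and was detected on 7 of 8 and 3 of 7 arrays. Its difference was -0.50 (interval -1.51 to 0.51).

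Cd74 ranged from 8.01 to 9.64 (median 8.72) in NO and from 7.95 to 9.57 (median 9.11) in IH livers, a difference of 0.03 (interval -0.54 to 0.60). H2-Aa differed by -0.06 (interval -1.12 to 0.99), with 4.74 and 4.91 as the lowest NO and IH values. The class I chain, transporter and proteasome genes were narrower. H2-K1 differed by -0.01 (interval -0.30 to 0.28), H2-D1 by -0.11 (-0.59 to 0.36), Tap2 by -0.11 (-0.43 to 0.21) and Psmb9 by -0.04 (-0.41 to 0.33), and all overlapped. Without numbers 2 and 20, and without all 7 numbers above, again 0 of the 8 were called.

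In the liver none of the 30 partner genes of the pathway and its regulators that were tested was called. Over all 6443 genes 0.931% were called, so a count of 0 says little about these lists or the marker lists below. The lowest p-values of each list belonged to H2-DMa, which helps class II exchange its peptide (-0.49, adjusted p = 0.331 from limma), and the thiol reductase Ifi30 (-0.30, 0.407), and to the class I chaperones Calr (-0.29, 0.319) and Pdia3 (-0.23, 0.446). In the other lists they belonged to the proteasome activator Psme3 (0.31, 0.224) and the subunit Psmb7 (0.13, 0.561), and to Irf2 (0.37, 0.171) and Rfxap (-0.30, 0.231), transcription factors of these genes. None of the 8 macrophage and 4 Kupffer cell markers tested in liver was called, and all of them differed downward. No dendritic cell, B cell or T and NK cell marker was tested in liver.

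In adipose tissue the genes differed between IH and NO in both directions. The class I chain H2-D1 was 9.44-fold lower and the class II alpha chain H2-Aa 4.97-fold lower, each on its only probe. The class I chain H2-K1 was 8.05-fold lower on probe a, detected on 3 of 8 IH arrays, but its probe b, detected on all 16 arrays, differed by -0.45 and was not called. H2-Ab1 and the invariant chain Cd74 were 1.94-fold and 1.84-fold higher, calls that did not hold without the arrays that stood apart, and that of Cd74 was also lost in 9 of 16 fits with 1 array left out. Of the 10 genes 6 were called by limma at an adjusted p under 0.05, 2 higher and 4 lower, where 32.1% of 8207 genes were called, 17.6% higher and 14.5% lower. The median difference of the 10 was -0.36 and that of all genes 0.11. In this tissue 241 of 8207 genes fell by more than 2 on the log2 scale and 18 rose by more than 2.

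H2-D1 ranged from 9.68 to 10.41 (median 10.16) in NO and from 5.15 to 7.77 (median 7.01) in IH adipose tissue. All 8 IH arrays lay below all 8 NO arrays, and the lowest, not detected, was replicate 19. The difference was -3.24 (standard error 0.29, interval -3.84 to -2.64, adjusted p = 7e-08 from limma), with a two-sided exact permutation p of 1.55e-04, the smallest that 8 against 8 arrays allow. It was -3.34 without numbers 2 and 20 and -3.75 without all 7 numbers.

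H2-K1 read by probe a ranged from 8.15 to 8.97 (median 8.58) in NO and from 4.80 to 6.23 (median 5.38) in IH, with no overlap. Its difference was -3.01 (standard error 0.21, interval -3.46 to -2.56, adjusted p = 3.68e-09 from limma), and 3 of 8 IH arrays had it detected. The 5 arrays not detected, 4.80 to 5.44, lay on 1 chip and the 3 detected, 6.14 to 6.23, on another. Probe b of the same gene had 7.25 ± 0.61 (SD, n = 8) and 6.80 ± 0.45 (SD, n = 8), a difference of -0.45 that was not called (adjusted p = 0.180), and it was detected on all 16 arrays. The size of the H2-K1 change thus depended on the probe, and leaving out NO replicate 1, 2, 4, 5, 6, 7 or 8 made probe b the brighter one, with differences from -0.60 to -0.33 that were not called. On probe a the difference was -3.16 without numbers 2 and 20 and -3.51 without all 7 numbers. Of 31 genes with several kept probes whose value fell by more than 2, 5 had every probe fall by more than 1. H2-D1 and H2-Aa, with 1 probe each, could not be checked in this way.

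**Figure D3:**
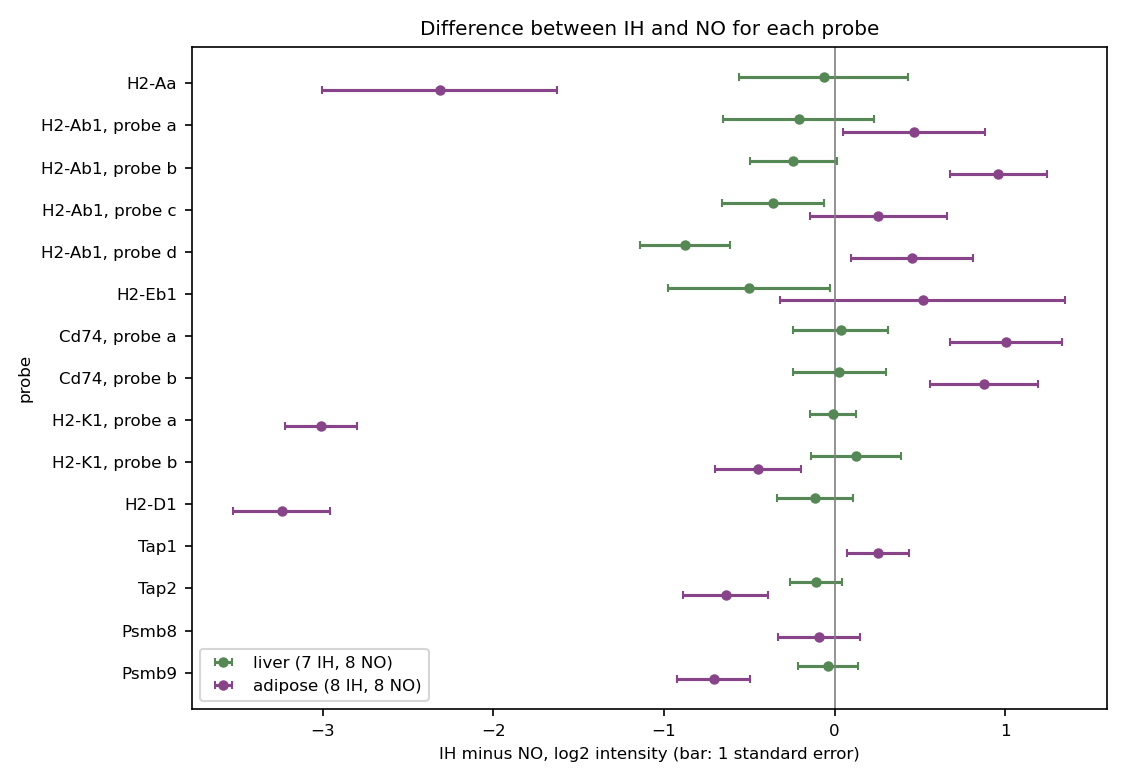
IH minus NO difference of each probe (log2 intensity, points with 1 standard error) in liver (green) and adipose tissue (purple), with the probes of a gene lettered in the order of their identifiers. Probes that were not kept in liver have no point. H2-K1 probe a is at -3.01 in adipose tissue and probe b at -0.45.

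Of 9 class I partners tested 2 were called, both lower, where 32.1% of all genes were called: H2-T23, read by its probe that all arrays detected (-1.28, adjusted p = 0.00166 from limma) and H2-Q7 (-1.24, 0.00984), a nonclassical class I gene like H2-T23. The other 7, which were not called, ranged from -0.70 for H2-T10 to 0.72 for Calr, and the class I light chain B2m, named after its value was seen, differed by -0.17 (adjusted p = 0.210). Class I genes resemble each other in sequence, and whether a probe read more than 1 of them was not tested. Psmb9 ranged from 8.70 to 9.92 (median 9.32) in NO and from 7.89 to 9.42 (median 8.69) in IH, and the groups overlapped. Psmb9 was lower by limma, with a difference of -0.71 (standard error 0.21, adjusted p = 0.0178), lay below the NO mean in 7 of 8 IH arrays, and differed by -0.86 without numbers 2 and 20 and by -0.91 without all 7 numbers. Of 8 proteasome partners, the activator subunit Psme3 was higher (0.58, adjusted p = 0.00612) and the constitutive catalytic subunit Psmb5 lower (-0.36, 0.0367).

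The transporter and the other inducible subunit were not called. Tap2 ranged from 10.12 to 11.21 (median 10.87) in NO and from 8.72 to 10.69 (median 10.23) in IH, a difference of -0.64 (adjusted p = 0.0604 from limma), and the lowest was IH replicate 19. It was called when any 1 of NO replicates 6 and 8 or IH replicates 15, 17 and 21 was left out, with adjusted p from 0.0409 to 0.0498. With all arrays in, the SAM statistic also called Tap2. Tap1, its partner subunit, differed by 0.26 (interval -0.13 to 0.64) and Psmb8 by -0.09 (interval -0.60 to 0.42).

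The class II genes did not share 1 direction. H2-Aa ranged from 5.85 to 11.30 (median 10.14) in NO and from 4.98 to 9.62 (median 7.40) in IH. The groups overlapped through NO replicate 2, the low end of NO, and IH replicate 22, the high end of IH. Limma gave a difference of -2.31 (standard error 0.69, adjusted p = 0.0169), with an exact permutation p of 0.00964. H2-Aa was below the NO mean in 8 of 8 IH arrays, and differed by -2.52 without numbers 2 and 20. Without all 7 numbers, where the IH arrays that remained lay on 1 chip, the difference was -3.34 and no IH array reached the NO arrays. Numbers 2 and 20 were set apart by H2-Aa itself. Both arrays of the overlap are among the 7, so the gap followed from that choice.

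H2-Ab1 ranged from 10.18 to 11.84 (median 11.30) in NO and from 11.34 to 13.03 (median 11.97) in IH, so that the groups overlapped. Limma gave a rise of 0.96 (standard error 0.29, adjusted p = 0.0169), and all 8 IH arrays exceeded the mean of the NO arrays. This was probe b, and probes a, c and d differed by 0.47, 0.26 and 0.45, with adjusted p of 0.412, 0.655 and 0.350. The call was lost with the mean of the 4 probes (0.53, adjusted p = 0.228), without numbers 2 and 20 (0.79, 0.0591) and without all 7 numbers (0.43, 0.289).

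Cd74 ranged from 10.52 to 12.49 (median 11.90) in NO and from 11.93 to 13.70 (median 12.45) in IH, again with overlap. Limma gave a rise of 0.88 (standard error 0.32, adjusted p = 0.0437) on probe b and of 1.00 (adjusted p = 0.0261) on probe a. The call of Cd74 was lost when any 1 of NO replicates 1, 2, 3 and 4 or IH replicates 16, 18, 20, 21 and 22 was left out (differences 0.71 to 0.90, adjusted p 0.0533 to 0.0858). The same held without a filter on dim probes (0.88, 0.0756), with the chip as a random block (0.91, 0.0564), without numbers 2 and 20 (0.72, 0.109) and without all 7 numbers (0.24, 0.594). H2-Eb1 ranged from 4.74 to 10.85 (median 9.85) in NO and from 6.05 to 12.22 (median 9.92) in IH, a difference of 0.52 (interval -1.26 to 2.29) that was not called.

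Of 7 class II partners tested 1 was called, where 32.1% of all genes were. Ctss, the cathepsin that trims the invariant chain, fell by 2.36 (adjusted p = 8.78e-06 from limma), and only 2 of 8 IH arrays detected it. The other 6 were not called. Of 13 regulators 3 were called, all lower, where 32.1% of all genes were called and 14.5% were lower. Jak1, the kinase of interferon receptors, was detected on 8 of 8 NO and 0 of 8 IH arrays (adjusted p = 1.71e-12 from limma). It was at least 6.73-fold lower when IH values under the lowest detected value of their array were raised to that value. Ifngr2, a chain of the interferon gamma receptor, fell from 10.63 ± 0.62 to 9.14 ± 0.38 (SD, n = 8 each, adjusted p = 1.28e-04 from limma) and Irf8, a transcription factor of dendritic cells and macrophages, by 0.80 (0.00164). Neither of the costimulation genes tested was called (Cd40 0.35, adjusted p = 0.158, and Cd86 0.23, 0.497). Ctss, Jak1 and the other genes here were each read from their brightest kept probe, and other probes of them are not given.

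Some cell type markers were called in IH adipose tissue, where 32.1% of all genes were. Of 8 macrophage markers tested 2 were called, both lower, Adgre1 (-2.81) and Cd163 (-1.80), and the other 6 ranged from -0.21 to 0.52. The summed linear macrophage signal ranged from 6640 to 27400 in NO and from 3580 to 19000 in IH. Siglech, 1 of 2 dendritic cell markers tested, fell by 2.69, and that list, with 3 of 8 genes detected within each group, summed to 754 to 1230 in NO and 292 to 648 in IH. Timd4, 1 of 2 tested of the Kupffer cell list, fell by 0.78. Blnk, 1 of 2 tested of the B cell list, rose by 0.87 but was detected on 1 of 8 NO and 7 of 8 IH arrays. It was thus kept mainly through the IH arrays, where it was higher. Of 5 B cell genes 2 were detected on any array. Of the T and NK cell list Cd4, Cd8a, Ncr1 and Gzma were not detected on any adipose array, and none was called. Of 5 adipocyte markers 1 was called, Fabp4, which fell by 3.34, and the other 4 ranged from -0.53 to 0.06. Of 4 endothelial markers 1 was called, Kdr, which fell by 0.62. It was detected on 7 of 8 NO and 1 of 8 IH arrays, and so was kept mainly through the NO arrays. Of 6 mesothelial and simple epithelial markers 2 were called, Wt1, which fell by 0.81, and the keratin Krt19, which rose by 1.34. Each marker was read from its brightest kept probe alone. Of 31 genes with several kept probes that fell by more than 2, 5 had every probe fall by more than 1. The part of these cells in the changes of H2-K1, H2-D1, H2-Aa and Cd74 was not tested.

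Whether IH acted differently in the tissues was tested directly, as the IH effect in adipose tissue minus that in liver. Of the 10 genes 3 differed at an adjusted p under 0.05, 1 upward and 2 downward, against 22.1% of 8654 genes (10.1% upward, 12% downward): H2-K1, read by probe a, by -3.02 (standard error 0.25, adjusted p = 4.72e-11 from limma), H2-D1 by -3.15 (0.38, 7.79e-08) and H2-Ab1 by 1.20 (0.40, 0.0284). In liver their differences from NO lay between -0.24 and -0.01. H2-Aa differed by -2.26 (interval -4.11 to -0.42, adjusted p = 0.0707) and Cd74 by 0.85 (interval -0.04 to 1.73, adjusted p = 0.164), and neither was called.

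The interaction of H2-Aa and H2-Ab1 depended on the arrays that stood apart. Without numbers 2 and 20 H2-Aa was called (-2.49, adjusted p = 0.00203 from limma) and H2-Ab1 was not (0.88, 0.149). Numbers 2 and 20 were set apart by their own H2-Aa values, so the calls of H2-Aa without them are a description only. Leaving out liver IH replicate 20, adipose NO replicate 2 or adipose IH replicate 22 alone also brought the call of H2-Aa (-2.82 to -2.59), and leaving out liver IH replicate 16 or 20 ended that of H2-Ab1 (1.05 and 1.09). The call of H2-Ab1 was also lost with the chip as a random block (1.24, adjusted p = 0.0634) and without all 7 numbers (0.35, 0.710), where H2-Aa was called (-2.92, 4.98e-04). Psmb9 differed by -0.67 (adjusted p = 0.0909) and was called without numbers 2 and 20 (-0.90, 0.0364), without adipose NO replicate 4 or without adipose IH replicate 20 (-0.78 and -0.77).

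Among themselves the class II genes varied together unevenly. Over deviations from the group means, H2-Ab1 followed Cd74 with a Pearson r of 0.94 over 15 livers and 0.96 over 16 adipose arrays. H2-Aa followed it with 0.27 and 0.75, and H2-Eb1 with 0.46 and 0.62. These arrays share chips and tissue makeup, so the values are a description. The non-members most like Cd74 were Pex11g, Saraf, C1qa, Cox8a and Angel2 in liver (r from 0.78 to 0.83) and H2-DMa, Arsb, Ccnc, Brox and Ephx1 in adipose tissue (0.88 to 0.91). For Psmb8, in adipose tissue only, they were Abcb4, Gatb, Slc2a4, Podn and Ndufb3 (0.86 to 0.90).

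**Figure D4:**
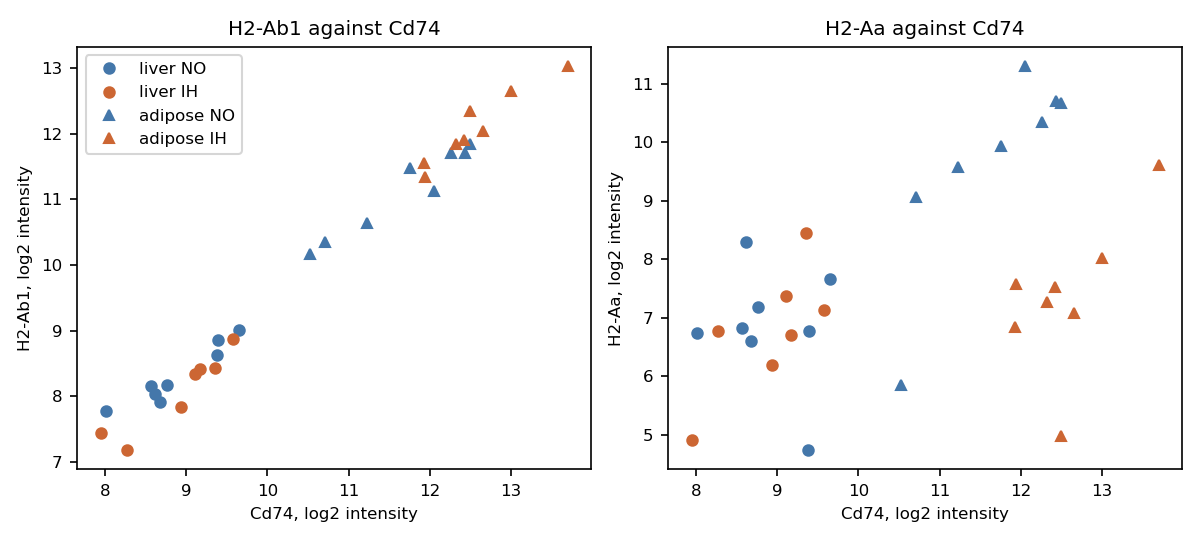
Log2 intensity of H2-Ab1 (left) and H2-Aa (right) against Cd74 on every array (circles liver, triangles adipose tissue, blue NO, orange IH). H2-Ab1 rises with Cd74 in both tissues, whereas H2-Aa under IH lies lower at the same Cd74 in adipose tissue.

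Within single groups, 12 relations between pairs of members were computed with exact permutation tests (two-sided). In NO adipose tissue H2-Aa and Cd74 had r = 0.83 (p = 0.00131, adjusted p = 0.0158, n = 8, exact permutation) and rho = 0.83 (p = 0.0154, adjusted p = 0.0923, exact permutation), and r was 0.99 without replicates 2 and 7. In IH adipose tissue H2-K1 probe a and H2-D1 had r = 0.79 (p = 0.00732, adjusted p = 0.0439, n = 8, exact permutation) and rho = 0.88 (p = 0.00724, adjusted p = 0.0869, exact permutation), and r was 0.79 without replicates 20 and 22. These IH arrays lay on 2 chips, of 5 and 3 arrays, that separated the H2-K1 values, which is too few for a value within each. None of the other 10 relations had an adjusted p under 0.05, among them H2-K1 with H2-D1 in NO adipose tissue (r = 0.01, adjusted p = 0.990, n = 8, exact permutation).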

How the data were processed

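RNA was extracted from liver and adipose tissue, and 250 ng was amplified, labelled with biotin and hybridized to bead arrays. The authors deposited intensity values beside a detection p-value, for 25697 probes and 31 arrays. The paper states that the raw data came from GenomeStudio and were not normalized further. The deposited intensity ranges from 101 to 34877. Sorted arrays differ by at most 1.05%, so their distributions were already nearly the same, although the table is named as not normalized. All alternatives that start from these intensities share this. The authors' processed intensity values per tissue, deposited as well, served only as an alternative.

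Each tissue was corrected with neqc of limma 3.58.1 in R 4.3.3 (offset 16, quantile, log2) and a probe was kept when detected (p under 0.01) on at least 7 liver or 8 adipose arrays, leaving 6443 and 8207 genes, each read from its brightest kept probe. Of the probes, 23978 carried 1 symbol and 1719 none. IH was compared with NO per tissue, and tissues in a fit of all 31 arrays, by limma with Benjamini-Hochberg adjustment over all genes. Single genes also had exact permutation tests over 6435 or 12870 splits.

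The members, the lists and the tests were chosen with earlier results of these data known. All members are named, then the called genes of each pathway list for IH against NO (or the 2 with the smallest p) and at most 4 of each marker list, and the 5 genes most like Cd74 and Psmb8. Between tissues the lists are given as counts. The number of arrays limits the precision.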

Additional observations from a re-analysis of the deposited data

Results flagged for a closer look

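Of 36 groups of 7 or 8 arrays tested, 4 held an array whose gap to its neighbour, as a share of the group's range, passed Dixon's critical value, which chance passes in about 1 of 20 groups. The gap was 0.577 for H2-Eb1 in NO liver replicate 2, 0.59 for H2-Aa in NO adipose replicate 2 and 0.69 for H2-Eb1 in NO adipose replicate 2. In NO liver it was 0.745 for Psmb9, where replicate 1 had 8.16 and the next lowest 9.11.

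The IH effect differed between adipose tissue and liver by the interaction term for H2-K1 (-3.02), H2-D1 (-3.15) and H2-Ab1 (1.20). That of H2-Ab1 was lost with the chip as a random block (1.24, adjusted p = 0.0634 from limma), without numbers 2 and 20 (0.88, 0.149), without the 7 numbers (0.35, 0.710) and without liver IH replicate 16 or 20. For H2-K1 the interaction was read from probe a, and the cause of the unlike values of its 2 probes was not tested.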

How the results depend on the processing

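In liver 0 of the 8 genes were called under all 14 alternatives and without any 1 of 15 arrays. In adipose tissue the count of 6 became 3 when probes had to be detected on every array (7 genes tested), 3 without replicates 2 and 20 and 3 without replicates 1, 2, 4, 15, 20, 21 and 22, and was 4 to 7 with single arrays left out. The fewer genes and arrays tested, the IH chip lost with the 7 numbers, and probe b standing in for H2-K1 enter these counts. Further causes were not tested. The last 2 alternatives and the fit of every probe were chosen after seeing the data. H2-Aa, H2-D1 and Psmb9 were called under every alternative that tested them, with differences of -3.34 to -1.80, -3.75 to -2.39 and -0.91 to -0.58. No called gene changed its direction under these settings, and H2-Eb1 in adipose tissue, not called, went to -0.34 without the 7 numbers. The interaction gave 3 genes, 2 to 4 under the alternatives and with single arrays left out, and the tissue difference 7, with 6 to 7 under the alternatives.

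Over all genes, the liver count of 60 ranged from 4 to 220 under the alternatives, and the adipose count of 2638 from 1316 to 3363. With the replicate block, random, 3 genes were called for the interaction, and with the replicate block, fixed, 7 for the tissue difference. The labels do not tie the numbers to mice, and they were to be used as pairs only if every number correlated over 0.1 between the tissues. Of 15 shared numbers 8 did, and 8 correlated best with their own number, which, like the H2 genes, is a hint from the data, not from the design, that same-numbered arrays may be related. Within a tissue the exposures share no number. Dim probes limit Tap1 and Psmb8 in liver and H2-K1 probe a and Ctss under IH in adipose tissue.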
